A study of Mus musculus with 4 samples.

Results

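The let-7 and miR-98 family was followed in exosomes, the vesicles that cells release, from BV2 cells, an immortalized line of mouse microglia with a wild-type genotype label. The members are the 9 guide strands from the 5p arm of the precursor (let-7a, b, c, d, e, f, g and i and miR-98) and let-7d-3p, the abundant strand from the opposite arm. They were taken by name, and all 10 of the 10 names were among the 603 miRNA names listed. Small RNA was sequenced in 4 libraries. The 2 control libraries came from cells kept at 37 °C for 2 h, and the 2 libraries of the heatstroke (HS) group from cells held at 42 °C for 2 h. The culture methods of the study then give 12 h at 37 °C. For the harvest of the sequenced exosomes its results text gives a shorter time after heating, so the harvest time is uncertain. BV2 is a single line, and no source used here says whether the replicates were separate cultures, so the p-values measure the spread between these libraries, which may be technical.

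Let-7 miRNAs are among the most conserved animal miRNAs. A mature let-7 guides the silencing complex to messenger RNAs that pair with its seed, the bases 2 to 8 from its 5′ end, and known targets include Hmga2, Lin28 and genes of the Ras family. Members rise as cells differentiate, LIN28 proteins block the maturation of their precursors, and extracellular let-7b has been described as a ligand of Toll-like receptor 7 in microglia and neurons.

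The mature sequences of the members, from the RefSeq annotation of GRCm38.p6, are shown because the family is 1 seed with small differences behind it, and those differences decide which reads count for which member. The capitals mark bases 2 to 8.
mmu-let-7a-5p: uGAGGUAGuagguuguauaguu
mmu-let-7b-5p: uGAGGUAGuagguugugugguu
mmu-let-7c-5p: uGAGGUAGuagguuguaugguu
mmu-let-7d-5p: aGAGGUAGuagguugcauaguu
mmu-let-7e-5p: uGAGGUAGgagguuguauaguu
mmu-let-7f-5p: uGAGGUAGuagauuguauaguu
mmu-let-7g-5p: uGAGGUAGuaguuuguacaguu
mmu-let-7i-5p: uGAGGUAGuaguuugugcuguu
mmu-miR-98-5p: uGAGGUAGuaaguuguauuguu
mmu-let-7d-3p: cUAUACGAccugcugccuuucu

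All 9 of the 5p members carry the same seed, whereas let-7d-3p has another. Each member is 22 bases long, so the order of levels is the same per molecule and per base. Of the 36 pairs of 5p members, 4 differ at a single base. With positions counted from 1 at the 5′ end and the base of the first-named member given first, these are let-7a-5p and let-7c-5p (A19G), let-7a-5p and let-7e-5p (U9G), let-7a-5p and let-7f-5p (G12A), and let-7b-5p and let-7c-5p (G17A). The remaining pairs differ at up to 6 bases. The sources used here do not say how many mismatches were allowed in mapping or how reads shared by such neighbours were assigned, so the split between members 1 base apart is uncertain.

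The RefSeq table lists 12 precursor genes of the family on GRCm38.p6, and GENCODE M21 gives each the same coordinates. Mirlet7d, Mirlet7f-1 and Mirlet7a-1 lie together on the minus strand of chromosome 13, from 48536012 to 48538272, each overlapping an exon of the long non-coding RNA 6720427I07Rik. Mirlet7c-2 and Mirlet7b lie 621 bases apart on the plus strand of chromosome 15, from 85706603 to 85707403, and overlap exons of Lncppara. Mirlet7f-2 and Mir98 lie 785 bases apart on chromosome X, from 151912346 to 151913321, within an intron of Huwe1. Mirlet7g, on chromosome 9 from 106178840 to 106178927, is in an intron of Wdr82, and Mirlet7e, on chromosome 17 from 17830352 to 17830444, is in an intron of Spaca6. Mirlet7a-2, on chromosome 9 from 41536716 to 41536811, and Mirlet7c-1, on chromosome 16 from 77599657 to 77599750, are in introns of the non-coding genes 3110039I08Rik and Mir99ahg. Mirlet7i lies on chromosome 10 from 122985640 to 122985724 and overlaps an exon of the pseudogene D630033A02Rik. Since let-7a, let-7c and let-7f each have 2 precursor genes, their reads cannot be assigned to one locus.

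Reads on listed miRNAs numbered from 42091 in HS replicate 1 to 121503 in control replicate 2, and the other 2 libraries were within that range. Levels are given as normalized counts, the reads divided by the size factor of the library, so that 1 read is worth 2.42 in HS replicate 1 and from 0.664 to 0.836 in the other libraries. HS replicate 1 stood apart from the rest: its 5 stromal and endothelial marker miRNAs summed to 7 reads, with miR-199a-3p and miR-145a-5p at 0, against 1189 to 3468 reads in the other libraries. The 6 myeloid markers, all listed, held 6.76% of the reads of control replicate 1, 2.96% of control replicate 2, 1.68% of HS replicate 1 and 3.80% of HS replicate 2. Most of the first value came from miR-21a-5p, with 4666 of the 6526 reads, and without it the other 5 held 1.93%, 2.04%, 1.41% and 2.72% in the same order. Among these, miR-146a-5p was abundant in every library, with at least 533 reads, whereas miR-223-3p, a defining myeloid miRNA, had at most 5 reads in any library. MiR-142a-3p had 17, 3, 0 and 3 reads in control replicates 1 and 2 and HS replicates 1 and 2. Its opposite arm, miR-142a-5p, was well covered, with 205, 281, 33 and 248 reads in that order. MiR-155-5p had 176, 188, 26 and 186. All 5 stromal and endothelial markers were lower in both HS libraries than in both controls (median log2 fold change -2.93). Of the 376 miRNAs with at least 10 reads in total, 32.4% were lower in this way, and the median log2 fold change was -0.65. MiR-214-3p, 1 of the 5 markers, had only 3, 11, 1 and 3 reads in the same order of libraries. MiR-9-5p (neuron) was also lower in both HS libraries, at 80.2 and 128 normalized counts in the controls against 21.8 and 75.6. MiR-122-5p (liver) was higher in both, at 22.6 and 119 in the controls against 232 and 137. MiR-451a (red cell) overlapped, with 23 to 73 reads, while miR-144-3p (red cell) had at most 2 and the neuronal miR-124-3p is not among the listed names. The part of these markers in the let-7 values was not tested.

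The family as a whole made up about the same part of the miRNA reads in both groups, while its make-up varied from library to library. The 9 5p members held 19.4% of all listed reads in control replicate 1 (95% Wilson interval 19.1% to 19.6%), 23.5% in control replicate 2 (23.2% to 23.7%), 22.6% in HS replicate 1 (22.2% to 23.0%) and 21.1% in HS replicate 2 (20.9% to 21.4%). Both HS libraries lay between the control libraries. The control mean was 21.4% ± 2.89 (SD, n = 2) and the HS mean 21.9% ± 1.06 (SD, n = 2). Reads copied by PCR are no independent molecules, so such intervals describe the error of counting alone. No test is given for this sum over chosen members.

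Let-7c-5p led the family and was the most abundant of all listed miRNAs in each of the 4 libraries. Control replicates 1 and 2 had 5926 and 11201 normalized counts, HS replicates 1 and 2 had 13870 and 9360. The groups overlapped, and control replicate 1 was the lowest. Let-7b-5p, which differs from it at 1 base and shares a cluster with Mirlet7c-2, had 1678 and 2547 normalized counts in the controls and 5211 and 2705 in the HS libraries. Each HS library exceeded both controls, HS replicate 2 only slightly, and HS replicate 1 was 1.93-fold above HS replicate 2. The control mean of let-7b-5p was 2112 ± 615 (SD, n = 2) and the HS mean 3958 ± 1772 (SD, n = 2), a 1.87-fold difference. On the log2(normalized count + 1) scale the fold change from limma was 0.86 (standard error 0.81, 95% interval -1.31 to 3.04, adjusted p = 0.662), and the interval included 0. It was 0.39 with HS replicate 1 left out and 1.33 with HS replicate 2 left out, so its size rests largely on HS replicate 1. Leaving out 1 library at a time moved let-7c-5p between 0.025 and 0.94 (0.48 with all 4).

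Let-7f-5p showed the largest difference of the members in limma with all 4 libraries. Control replicates 1 and 2 had 2248 and 1404 normalized counts of it, HS replicates 1 and 2 had 762 and 650. Both HS libraries were well below both control libraries and close to each other. The means were 1826 ± 596 (SD, n = 2) and 706 ± 79.3 (SD, n = 2), so the control level was 2.59-fold the HS level. On the log2 scale limma gave -1.34 ± 0.75 (standard error; 95% interval -3.36 to 0.69), with an unadjusted p = 0.145 and an adjusted p = 0.617. Without one library at a time the log2 fold change of let-7f-5p ranged from -1.67 to -0.996. Its unadjusted p was 0.0243 with DESeq2's Wald test, 0.0302 with edgeR's quasi-likelihood test, 0.0269 with limma-voom and 0.0192 with a mean-variance trend in limma, while its adjusted p over all settings ranged from 0.276 to 0.883.

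Let-7g-5p and let-7i-5p, which differ from each other at 2 bases, were also lower in both HS libraries than in both control libraries. Let-7i-5p had 1980 and 1495 normalized counts in the controls and 1115 and 1033 in the HS libraries. With limma this gave a log2 fold change of -0.68 ± 0.72 (standard error) at an adjusted p = 0.707. Let-7g-5p had 1619 and 993 in the controls and 387 and 925 in the HS libraries. Here HS replicate 2 lay just under control replicate 2, and HS replicate 1 was 2.39-fold below HS replicate 2. The log2 fold change of let-7g-5p was -1.08 (standard error 0.86, adjusted p = 0.621, limma), and it was -0.45 when HS replicate 1 was left out and -1.71 when HS replicate 2 was.

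Let-7a-5p, which shares the chromosome 13 cluster with let-7f, had 1885 and 1349 normalized counts in the controls and 1441 and 1034 in the HS libraries. The groups overlapped, and limma put the difference at -0.39 ± 0.75 on the log2 scale (standard error), with an adjusted p = 0.845. Let-7d-5p, from the same cluster, had 232 and 304 in the controls and 172 and 248 in the HS libraries, again with overlap (log2 fold change -0.36).

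The remaining members gave no steady direction. Let-7d-3p had 1133 and 1547 normalized counts in the controls and 2362 and 1029 in the HS libraries, so that HS replicate 1 was the highest and HS replicate 2 the lowest of the 4. Its log2 fold change of 0.24 became -0.36 without HS replicate 1. MiR-98-5p, the rare X-linked relative, was counted in 46, 39, 17 and 16 reads in control replicates 1 and 2 and HS replicates 1 and 2, or 38.5, 26.4, 41.1 and 10.6 normalized counts. Its log2 fold change of -0.57 became 0.36 without HS replicate 2. Let-7e-5p was the rarest member, with 32, 9, 9 and 12 reads in the same order. Its log2 fold change was 0.025 with a 95% interval from -2.88 to 2.94, so that no difference was detectable at this depth. Its direction turned with the scaling and the test used.

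**Figure D1:**
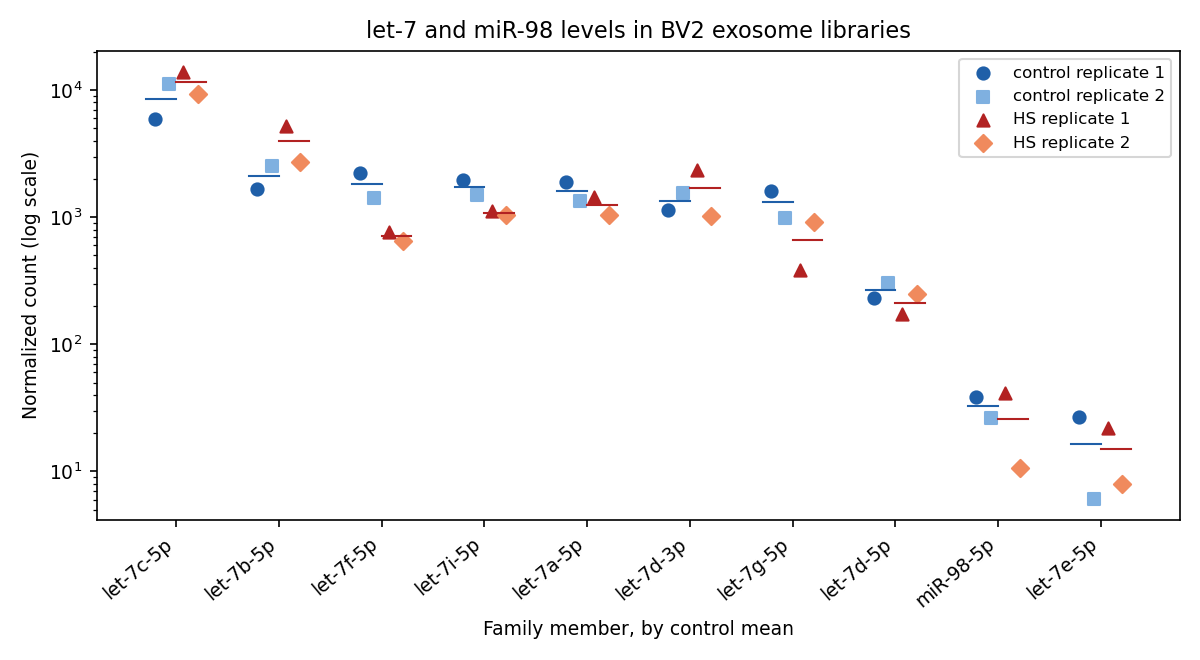
Normalized counts (log axis) of the 10 members in each of the 4 libraries, ordered by the control mean, with short lines at the mean of each group of 2. Let-7f-5p lay at 1404 and 2248 in the control group and at 650 and 762 in the HS group, whereas let-7c-5p overlapped between the groups.

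Of the 10 members, 0 had an adjusted p under 0.05 in limma and 0 had an unadjusted p under 0.05. Over all 376 miRNAs tested (at least 10 reads summed over the libraries), 0 (0%) had an adjusted p under 0.05, and 31 (8.24%) met the study's criterion (a fold change above 2 and an unadjusted p under 0.05). All 31 miRNAs with such a p passed the fold limit too. In DESeq2, edgeR's quasi-likelihood test, limma-voom and limma with a trend, 1 member, let-7f-5p, met that criterion (10% of the members), beside 29 (7.71%), 32 (8.51%), 27 (7.18%) and 21 (5.59%) of the 376 miRNAs in the same tests, a like share. None of these tests gave an adjusted call. The groups did not overlap for 4 members, beside 44.9% of the tested miRNAs. The HS libraries were the higher ones for 1 of these, let-7b-5p, beside 12.5% of the tested miRNAs, and the lower ones for 3, let-7f-5p, let-7g-5p and let-7i-5p, beside 32.4%. The members' log2 fold changes ran from -1.34 to 0.86 with a median of -0.37, 6 of them below 0, beside a median of -0.65 over all tested miRNAs, 65.4% of them below 0. That median was itself unsteady, at -0.17 with HS replicate 1 left out and -1.38 with HS replicate 2 left out. With TMM scaling or scaling by total reads, let-7a-5p separated the groups and let-7g-5p did not, whereas let-7b-5p, let-7f-5p and let-7i-5p separated them under each scaling tried. Let-7b-5p and let-7c-5p had positive and let-7a-5p, let-7d-5p, let-7f-5p, let-7g-5p, let-7i-5p and miR-98-5p negative fold changes under each of these scalings.

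**Figure D2:**
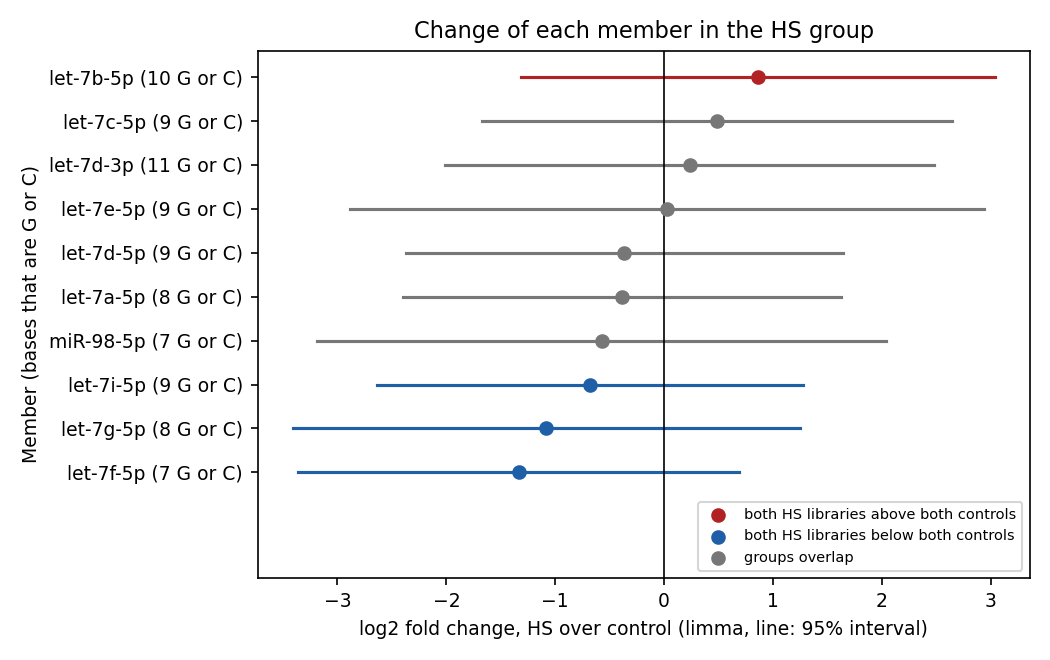
The log2 fold change of each member in the HS group over the control group, from limma on log2(normalized count + 1), with lines for the 95% interval and the number of G or C bases of each mature sequence in brackets. The changes run from -1.34 for let-7f-5p to 0.86 for let-7b-5p, and each of the 10 intervals includes 0.

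The order of the levels differed between the groups in the middle of the family. In the control group let-7c-5p was first, at 8563 ± 3730 (SD, n = 2), and lay above let-7b-5p in both libraries with no overlap of their ranges. Let-7b-5p, let-7f-5p, let-7i-5p, let-7a-5p, let-7d-3p and let-7g-5p followed between 2112 and 1306, and no neighbours in that order were apart beyond the range of their libraries. Let-7d-5p (268 ± 50.9, SD, n = 2) came next, apart on both sides, and miR-98-5p and let-7e-5p, whose ranges overlapped, were last. In the HS group let-7c-5p (11615 ± 3189, SD, n = 2) and let-7b-5p were each apart from the next member down. Let-7f-5p was at rank 3 of 10 in the control group and at rank 6 in the HS group, next to let-7g-5p, from which it did not differ beyond the spread, and let-7d-3p was at rank 3 in the HS group.

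Expressed as a share of the family's 5p reads, which does not depend on the size factors, let-7b-5p and let-7c-5p took a larger part in the HS libraries. Together they held 48.6% of the family reads of control replicate 1, 71.1% of control replicate 2, 82.9% of HS replicate 1 and 75.5% of HS replicate 2. The difference of the means was 19.3 percentage points, and it was 8.07 without control replicate 1 and 30.6 without control replicate 2, so its size rests largely on control replicate 1. Let-7b-5p alone held 10.7% (95% Wilson interval 10.3% to 11.2%) and 13.2% (12.8% to 13.6%) in the controls and 22.6% (21.8% to 23.5%) and 16.9% (16.5% to 17.4%) in the HS libraries. Let-7c-5p held 37.9% and 58.0% in the controls and 60.3% and 58.6% in the HS libraries, where control replicate 2 nearly reached the HS values.

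The share of let-7f-5p was lower in both HS libraries. It was 14.4% (95% Wilson interval 13.9% to 14.9%) and 7.27% (6.97% to 7.57%) in the control libraries, and 3.31% (2.97% to 3.69%) and 4.07% (3.82% to 4.32%) in the HS libraries. Let-7i-5p held 12.7% and 7.73% in the controls and 4.84% and 6.47% in the HS libraries. Let-7a-5p held 12.1% and 6.98% in the controls and 6.26% and 6.47% in the HS libraries, with the groups apart but control replicate 2 within 1 percentage point of both. Let-7g-5p held 10.4%, 5.14%, 1.68% and 5.79% in control replicates 1 and 2 and HS replicates 1 and 2, with overlap. The shares of let-7d-5p stayed between 0.746% and 1.57%, and miR-98-5p and let-7e-5p together never exceeded 0.417%. Groups were apart for 5 of the 9 shares, a measure with no matching value over the other miRNAs. In normalized counts, an unlike measure, groups were apart for 4 of the 10 members and 44.9% of the tested miRNAs. The 9 shares add up to the whole, so a rise of some lowers others and these 5 are not separate observations. With 2 libraries against 2 a two-sided exact permutation test cannot go below p = 0.333, which was reached by these 5 shares (adjusted p = 0.600 over the 9 compared).

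**Figure D3:**
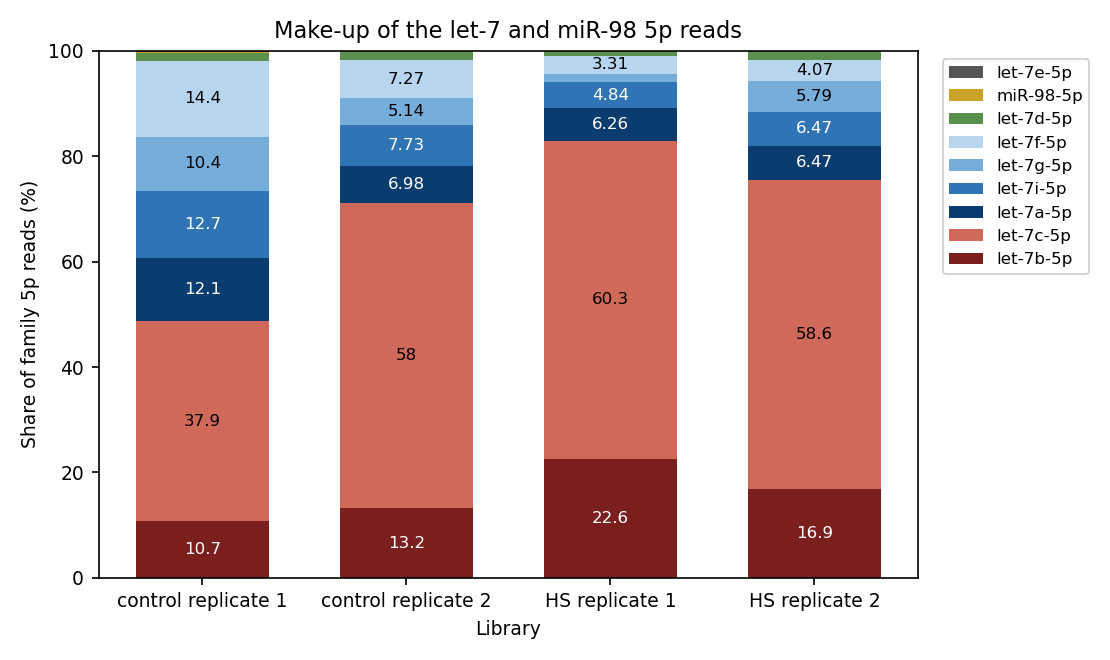
Share of each 5p member (percent, stacked to the whole) among the family's 5p reads in each library. Let-7b-5p and let-7c-5p together hold 48.6% and 71.1% in the controls and 82.9% and 75.5% in the HS libraries, while let-7f-5p is at 14.4%, 7.27%, 3.31% and 4.07%.

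Members from one cluster, or 1 base apart, were set against each other within each library. These pairs were picked after the values were known, and their ratios are given as a description. Let-7f-5p and let-7a-5p share the chromosome 13 cluster and differ at G12A of the sequences shown above. There were 1.19 and 1.04 let-7f-5p reads per let-7a-5p read in the controls and 0.529 and 0.628 in the HS libraries. The ratio was thus lower in both HS libraries, with a log2 difference of -0.95 between the group means. Let-7b-5p reads per let-7c-5p read numbered 0.283 and 0.227 in the controls and 0.376 and 0.289 in the HS libraries, where the highest control and the lowest HS value nearly met. For let-7c-5p per let-7a-5p the values were 3.14 and 8.30 in the controls and 9.62 and 9.05 in the HS libraries, so that control replicate 1 stood apart. Let-7d-5p per let-7a-5p, also from chromosome 13, was 0.123 and 0.226 in the controls and 0.119 and 0.240 in the HS libraries, and did not separate the groups. Nor did let-7e-5p per let-7a-5p, at 0.0142 and 0.0045 in the controls and 0.0151 and 0.0077 in the HS libraries. MiR-98-5p per let-7f-5p overlapped too, at 0.0171 and 0.0188 in the controls and 0.0540 and 0.0163 in the HS libraries.

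Let-7d is the member whose opposite arm is the more abundant strand. Let-7d-3p outnumbered let-7d-5p 4.88-fold and 5.08-fold in control replicates 1 and 2, 13.8-fold in HS replicate 1 and 4.15-fold in HS replicate 2. The groups overlapped, with HS replicate 1 alone on the high side (log2 difference 0.60, exact permutation p = 1, two-sided), and without HS replicate 1 the difference was -0.26. The other strands opposite to the guides were rare. Of the 11 other 3p names in the reference, 9 were listed and 5 had at least 10 reads in all. Of these 5, 0 met the study's criterion in limma, beside 8.24% of all tested miRNAs. An adjusted p under 0.05 was reached by 0, beside 0% of all tested miRNAs. Their median log2 fold change was -0.67, beside -0.65 over all tested miRNAs. Let-7a-1-3p and let-7c-2-3p have the same sequence and the same reads in each library (134, 160, 36 and 82 in control replicates 1 and 2 and HS replicates 1 and 2). They are 1 species, but the 5 names and their median include both. Both HS libraries were lower here, at 87.1 and 54.4 normalized counts against 112 and 108 (log2 fold change -0.67, standard error 0.75, adjusted p = 0.721, limma). Let-7b-3p had 9, 12, 2 and 7 reads in the same order, and at most 0.448% of the reads of its 5p partner. Let-7f-1-3p had 5, 6, 0 and 10 reads and miR-98-3p 0, 24, 0 and 7, where a count of 0 in HS replicate 1 allows up to 7.25 normalized counts.

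**Figure D4:**
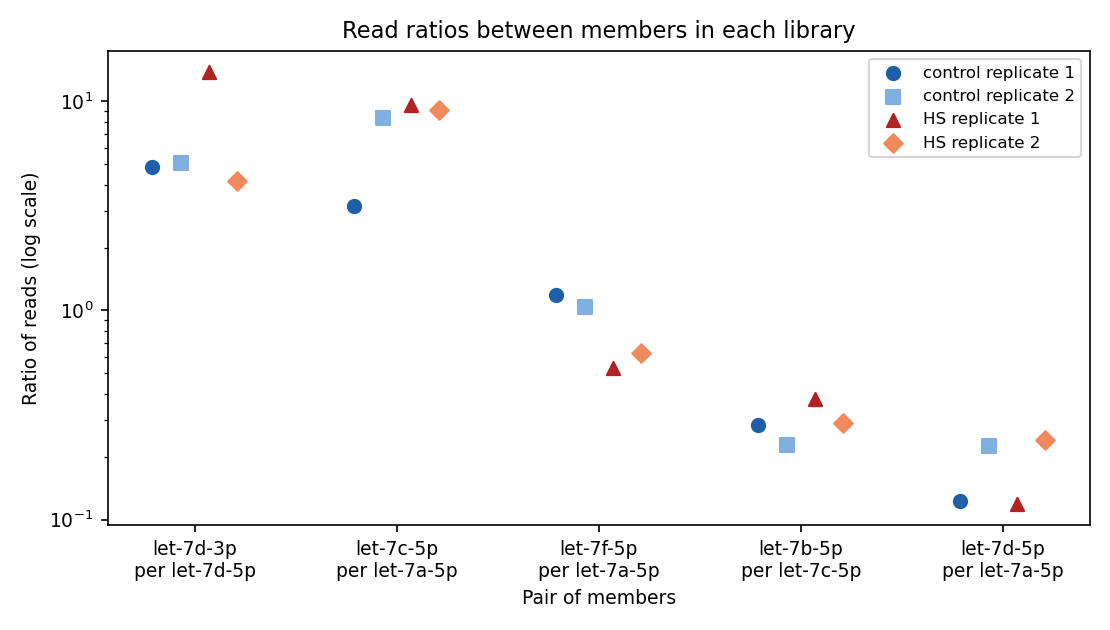
Ratio of reads (log axis) between 5 pairs of members in each library. The ratio of let-7f-5p to let-7a-5p is 1.19 and 1.04 in the controls and 0.529 and 0.628 in the HS libraries, and the arm ratio of let-7d is 13.8 in HS replicate 1 and between 4.15 and 5.08 in the other libraries.

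The fold changes of the members also varied with base composition, a property that the choice of names did not use. Let-7b-5p has 10 G or C bases of 22 (45.5%), the most of the 5p members, and the highest fold change. Let-7f-5p and miR-98-5p have 7 (31.8%), the fewest, and fold changes of -1.34 and -0.57. The 4 members with 9 such bases (let-7c, d, e and i) ranged from -0.68 to 0.48. Across the 9 5p members, which share libraries and most of their bases, Spearman's rho between GC content and the log2 fold change was 0.77 and Pearson's r 0.78. Between single libraries rho was 0.43 to 0.74 and r 0.37 to 0.80 for the 4 pairs of an HS and a control library. For control replicate 2 against control replicate 1 rho was 0.55 and r 0.37. For HS replicate 2 against HS replicate 1 rho was -0.035 and r 0.049. Positive values were thus seen between the controls as well, though r was lower there than over the groups. The GC content of the family's reads, taken from the reference sequences, was 39.0% for control replicate 1, 40.3% for control replicate 2, 41.3% for HS replicate 1 and 40.7% for HS replicate 2.

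Base composition and fold change were also related over the tested miRNAs, members included, though not step by step. The GC content of all listed reads outside the family with a reference sequence was 49.0% and 51.2% in the controls and 53.9% and 51.7% in the HS libraries. Of the 376 tested miRNAs 307 had a reference sequence, and over these rho between GC content and the fold change was 0.37. Among those with at least 100 reads in all, the median log2 fold change was -0.66 for the 24 miRNAs with under 40% GC, -1.64 for the 20 with 40% to under 45%, -0.49 for the 23 with 45% to under 50%, 0.017 for the 31 with 50% to under 55% and 0.53 for the 33 with 55% or more. The lowest median was thus in the band that holds let-7c, d, e and i, whose own values are given above. These miRNAs are not independent replicates, and the part of base composition in the let-7 changes was not tested. With the linear GC trend of each library removed, an alternative chosen after the data were seen, the fold changes were 1.12 for let-7b-5p, 0.96 for let-7c-5p, -0.41 for let-7f-5p, -0.38 for let-7g-5p and -0.20 for let-7i-5p, and those of let-7a-5p, let-7d-5p and miR-98-5p turned positive.

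**Figure D5:**
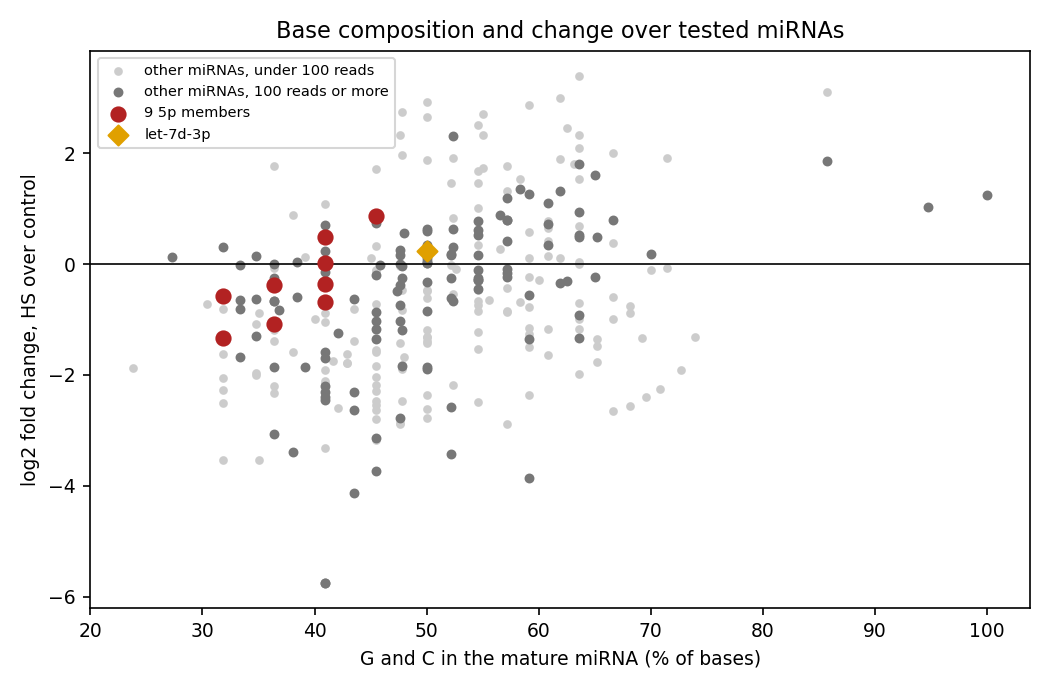
The log2 fold change of the HS group over the control group against the share of G and C bases in the mature sequence, for the 307 tested miRNAs with a reference sequence. The 5p members lie between 31.8% and 45.5% GC, with let-7f-5p at -1.34 and let-7b-5p at 0.86.

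Several let-7 precursors sit beside precursors of the miR-99/100 and miR-125 families, which have other seeds. Mir99a lies next to Mirlet7c-1, Mir100 and Mir125b-1 around Mirlet7a-2, and Mir99b and Mir125a on either side of Mirlet7e. Of 11 neighbour names 9 were listed and 7 tested. Of these 7, 0 met the study's criterion or had an adjusted p under 0.05 in limma. Over all 376 tested miRNAs 8.24% met the criterion and 0% had such an adjusted p. The median log2 fold change was -1.34 for the 7 neighbours and -0.65 over all tested miRNAs. MiR-99a-5p, at 3076 and 2927 normalized counts in the controls and 2974 and 3101 in the HS libraries, had a log2 fold change of 0.017 (95% interval -1.90 to 1.93). MiR-100-5p had 131 and 181 in the controls and 16.9 and 97.5 in the HS libraries (log2 fold change -1.88, standard error 1.11, adjusted p = 0.621, limma). MiR-125a-5p, which neighbours let-7e, had 91.9 and 68.5 in the controls and 12.1 and 36.5 in the HS libraries (log2 fold change -1.86, adjusted p = 0.617, limma). MiR-99b-5p had 46.8 in each control and 9.67 and 32.5 in the HS libraries. In HS replicate 1 the values of miR-100-5p, miR-125a-5p and miR-99b-5p rest on only 7, 5 and 4 reads, worth 2.42 normalized counts each. MiR-125b-5p overlapped between the groups, at 275 and 67.8 in the controls and 140 and 157 in the HS libraries.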

How the data were processed

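Small RNA from exosomes was measured in 2 control and 2 HS libraries. The authors trimmed adapters, dropped poor reads and those under 17 nt, and used bowtie to map what was left. The version, genome build, miRNA annotation and mismatch setting are not given in the sources used here. The deposited signal values, headed RPKM, were whole reads divided by 1 size factor per library: 100% of the values above 0 were whole multiples of the smallest (tolerance 0.001), and reads were recovered by division.

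The comparison used limma 3.58.1 under R 4.3.3 (without a trend) on log2(normalized count + 1), over all miRNAs with at least 10 reads in total, with Benjamini-Hochberg adjustment over all of them, as planned for normalized values. DESeq2 1.42.0, edgeR 4.0.16 and limma-voom on the recovered reads, other scalings, pseudocounts and filters, a replicate block and leaving out each library were alternatives. Shares carry 95% Wilson intervals, and single ratios an exact permutation test. Named were all members, their opposite arms and the 2 other listed let-7 names with at least 10 reads, cluster neighbours with at least 100, and the 3 miRNAs with the most similar profile. The marker lists were myeloid, red cell, liver, neuron, and stromal and endothelial. The members and lists were chosen with earlier results of these data known. Sequences came from RefSeq, which held all 10 members and 497 of the 603 listed names. The scripts were tested on simulated data.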

Additional observations from a re-analysis of the deposited data

How the results depend on the processing

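The members' log2 fold changes kept their direction in 116 of 120 values under the planned settings and in 36 of 40 with 1 library left out, and 0 members had an adjusted p under 0.05 in any of them (adjusted p from 0.217 to 1). Let-7e-5p reversed, from 0.025 to -0.036 with TMM scaling, -0.079 with scaling by total reads, -0.18 in DESeq2 and -0.28 in edgeR's quasi-likelihood test, and it ranged from -0.96 without control replicate 2 to 1.01 without control replicate 1, with -0.65 without HS replicate 1. MiR-98-5p ranged from -1.50 (HS replicate 1 left out) to 0.36 (HS replicate 2 left out), and let-7d-3p from -0.36 to 0.83 in the same order. With the linear GC trend removed, let-7a-5p was 0.31, let-7d-5p 0.11 and miR-98-5p 0.35. The cause of these reversals was not tested. For shares, the difference of let-7d-5p ranged from -0.785 percentage points without HS replicate 2 to 0.0230 without HS replicate 1, and that of let-7e-5p reached 0.0406 without control replicate 1, against -0.381 and -0.0291 with all libraries. The log2 arm ratio of let-7d differed by -0.26 to 1.47 with 1 library left out.

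Of the members, 1, let-7f-5p, met the study's criterion in DESeq2, edgeR's quasi-likelihood test, limma-voom and limma with a trend, where 29, 32, 27 and 21 of the 376 miRNAs did, and 0 in the other settings. Over all miRNAs 31 met it, 13 with at least 10 reads required in 2 or more libraries, 13 with the GC trend removed, and 26 to 113 with 1 library left out, the highest without HS replicate 2. The median fold change of all miRNAs (-0.65) shifted by 0.18 with upper quartile scaling, 0.27 in DESeq2, 0.32 in edgeR, 0.33 in limma-voom, 0.17 with the GC trend removed, 0.13 with the stricter read filter, 0.12 with a pseudocount of 2, 0.48 without HS replicate 1 and -0.72 without HS replicate 2. The replicate numbers do not mark a shared culture in the labels, and the deviations of same-numbered libraries correlated at -0.10. With the replicate block 19 miRNAs and 0 members met the criterion, and no other call changed. Depth limits miR-98-5p and let-7e-5p most, with 9 to 46 reads per library.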

Other observations

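The list holds 2 further names of the family. Let-7j is described in RefSeq by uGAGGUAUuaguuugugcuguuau (bases 2 to 8 in capitals), which differs from let-7i-5p at G8U within the first 22 bases and has 2 more at its end, so its seed is not that of let-7. Control replicates 1 and 2 gave 84 and 107 reads of it, HS replicates 1 and 2 gave 28 and 110. In normalized counts these were 70.2, 72.5, 67.7 and 73.0, a narrow range beside the members, and limma gave a log2 fold change of -0.021 ± 0.71 (standard error) at an adjusted p = 0.998. The value of HS replicate 1 rests on 28 reads worth 2.42 normalized counts each, so its closeness to the others is poorly resolved. Let-7k, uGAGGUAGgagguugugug, has the let-7 seed but only 19 bases. It had 7, 6, 1 and 12 reads in the same order. A further RefSeq name with this seed, miR-1961, is not among the listed names.

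Summed over its 9 5p members, the family had 15633 and 19327 normalized counts in the controls and 23020 and 15973 in the HS libraries. Let-7b-5p and let-7c-5p held 48.6% to 82.9% of this sum, so likeness to it need not hold for the other members. Of the 148 miRNAs outside the family with at least 100 reads in all, miR-7a-5p had the profile most like the sum over the 4 libraries. Its root mean square difference was 0.0503 on the centred log2 scale, followed by miR-451a (0.0949) and miR-128-3p (0.132), beside a median of 0.685. These 3 miRNAs were picked as the smallest of 148 differences, and miR-451a had only 23 to 73 reads per library, so this order is uncertain. MiR-7a-5p had 228 and 283 normalized counts in the controls and 353 and 222 in the HS libraries.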
